A study of Mus musculus with 3 samples.

Results

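The gene set described here holds Il4ra, which encodes the alpha chain of the interleukin-4 (IL-4) receptor, and 9 genes that IL-4 is known to switch on in mouse macrophages: Retnla, Chil3, Clec10a, Mgl2, Pparg, Tgm2, Ccl17, Ccl22 and Ccl24. The genes were chosen by symbol, and all 10 were found among the 55536 annotated genes, of which 21951 are protein-coding. RNA was taken from the chromatin fraction of C57BL/6J bone marrow-derived macrophages, which are macrophages grown from marrow cells in culture, and was sequenced after removal of ribosomal RNA. Chromatin RNA is rich in transcripts that are still being made or processed. The 3 libraries form 1 group: every culture was exposed to lipid A, the membrane component of Gram-negative bacteria that activates Toll-like receptor 4, at 100 ng/ml for 12 hours, was then kept without it for a further 12 hours, and was collected at minute 0 of a new exposure to 100 ng/ml. The labels name no IL-4 treatment. No library of untreated or IL-4-treated cells was analysed here, so each value is a level under this 1 condition and none is an induction. The labels number the libraries 1 to 3 as biological replicates under 1 donor identifier, without saying whether the cultures came from separate mice, so the spread between libraries may be partly technical. Age and sex were not collected.

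IL-4 binds the IL-4 receptor alpha chain, which then joins either the common gamma chain or the IL-13 receptor alpha-1 chain. Janus kinases bound to the receptor phosphorylate STAT6, which moves to the nucleus and binds DNA at the genes it activates. In macrophages the induced genes encode secreted proteins (Retnla, Chil3), C-type lectins (Clec10a, Mgl2), chemokines that attract T cells and eosinophils (Ccl17, Ccl22, Ccl24), a crosslinking enzyme (Tgm2) and a nuclear receptor of fatty acid metabolism (Pparg). Macrophages in this state are often called alternatively activated.

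Library depth was 11958978, 17283529 and 19475027 expected counts in libraries 1, 2 and 3, which started from 1000, 250 and 500 ng of RNA. All 8 macrophage markers, among them Adgre1 and Csf1r, stood at 1 TPM (a level corrected for gene length and library size) or more in every library. Library 3 stood apart: the 11 stromal markers, among them Col1a1 and Postn, summed to 674 TPM there against 0.2 and 2.15 TPM in libraries 1 and 2, and all 11 were highest in library 3. Dendritic cell markers summed to between 7.86 and 12.1 TPM. Batf3 was the highest of these, at 4.41, 8.11 and 4.26 TPM. Flt3, Xcr1, Ccr7 and Siglech were under 1 TPM in every library, and Cd209a was listed at 0 throughout. Clec9a stood at 1.37, 1.11 and 0.66 TPM. Zbtb46 stood at 1.63, 1.48 and 1.60 TPM, and Itgae at 1.11, 1.04 and 1.04 TPM. T cell markers summed to between 12.8 and 17.1 TPM, with Cd3e, Cd3g and Zap70 at 0 and most of the signal in Cd4 and Il7r. Granulocyte markers summed to at most 1.77 TPM and markers of eosinophils, basophils and mast cells to at most 1.45 TPM.

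By the main deposited values, which were counted from alignments (alignment-based), the receptor gene was high. Of the induced genes, 3 were at a few TPM and the other 6 were at or near 0. Il4ra, Clec10a, Tgm2 and Pparg reached 1 TPM in every library, which is 4 of 10 members against 46.2% of protein-coding genes. Retnla, Chil3, Mgl2, Ccl17, Ccl22 and Ccl24 were under 1 TPM in every library, which is 6 of 10 against 47.3% of protein-coding genes. Of these 6, Ccl24 stood at 4.82, 8.46 and 7.94 TPM in a second deposited set, the read-based values, described below. The median of the 10 alignment-based mean levels was 0.13 TPM, and that of protein-coding genes was 0.933 TPM. By the read-based values, the order of these medians was the other way round, at 3.75 TPM for the members and 2.74 TPM for protein-coding genes. The members' median there lay between the means of Ccl24, at 7.08 TPM, and Ccl22, at 0.416 TPM, with no member in between. In these bulk libraries, fewer cells that use a gene and less RNA of it per cell cannot be told apart.

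**Figure D1:**
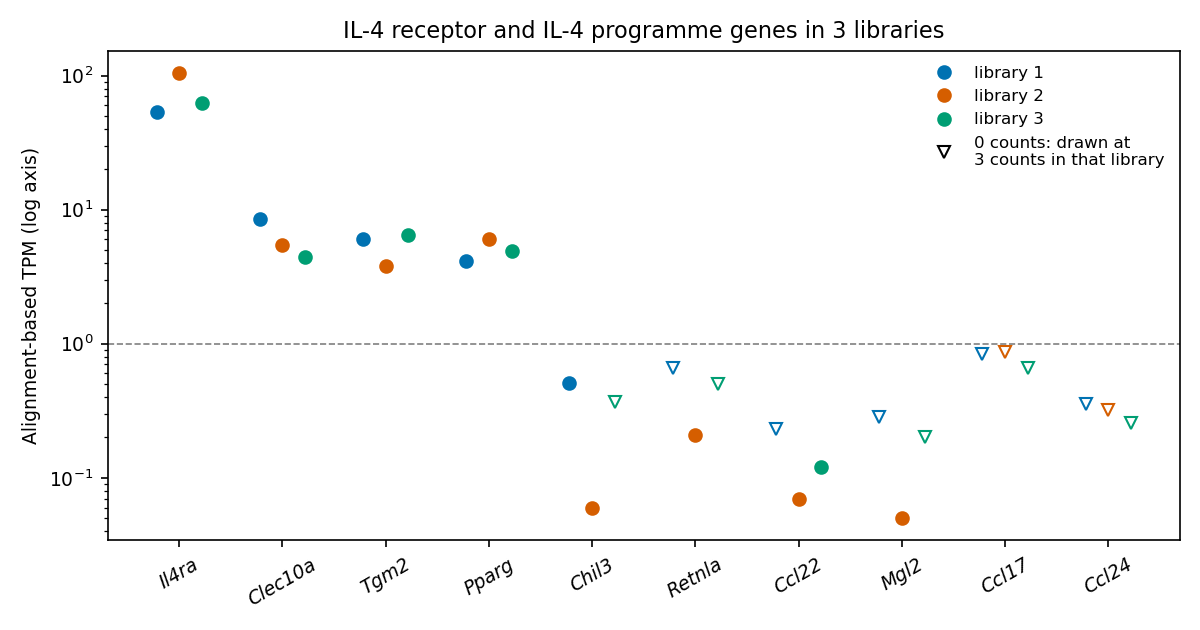
Level of each of the 10 genes in the 3 libraries, in alignment-based TPM on a log axis; each filled point is 1 library, and an open triangle marks a library with 0 counts, drawn at the level that 3 counts would give. Il4ra lies between 53.5 and 105 TPM, Clec10a, Tgm2 and Pparg lie between 3.82 and 8.54 TPM, and the other 6 genes lie under the dashed line at 1 TPM in every library.

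Il4ra, on chromosome 7 (mm10 chr7:125552120-125579474, plus strand), was listed at 53.5, 105 and 62.0 TPM in libraries 1, 2 and 3, from 2003, 4507 and 3428 expected counts. Library 2 was the highest, and its level lay well above the other two. The mean was 73.4 ± 27.4 TPM (SD, n = 3), and 96.0% of protein-coding genes had a lower mean. Il4ra was higher than Clec10a, the next member in the order of means, in all 3 libraries, and the means differed 12.0-fold.

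Clec10a encodes a galactose-binding lectin of macrophages and dendritic cells and lies at chr11:70156197-70170834 on the plus strand. It was listed at 8.54, 5.44 and 4.43 TPM, from 76, 105 and 90 counts, with a mean of 6.14 ± 2.14 TPM (SD, n = 3). Library 1 was the highest in TPM but the lowest in counts, and it was also the library of least depth. Relative to the scaled library size (CPM, below), libraries 1 and 2 were close, at 6.35 and 6.44, and library 3 stood at 4.51. The higher TPM of library 1 lay largely in 1 short isoform, Clec10a-203, a retained-intron transcript of 441 bases. That isoform held 5 TPM in library 1 from 13.8 counts, against 0.60 and 1.10 TPM in the others. Summed over protein-coding isoforms, Clec10a stood at 3.54, 4.85 and 2.99 TPM, and library 2 was the highest.

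Tgm2 encodes transglutaminase 2, an enzyme that crosslinks proteins, and lies on the minus strand at chr2:158116402-158146436. It was listed at 6.04, 3.82 and 6.42 TPM, from 209, 147 and 333 counts, with a mean of 5.43 ± 1.40 TPM (SD, n = 3). Library 2 was the lowest, and the other two were close to each other. Tgm2 overlaps Rprd1b, a gene on the other strand at 8.70, 8.18 and 6.94 TPM, and no source used here says whether counting was by strand, so reads in the overlap could belong to either gene.

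Pparg encodes the nuclear receptor PPAR gamma and lies at chr6:115360951-115490399 on the plus strand. It was listed at 4.15, 6.08 and 4.90 TPM, from 89, 135 and 136 counts, with a mean of 5.04 ± 0.97 TPM (SD, n = 3). One isoform, Pparg-202, which begins at the first annotated base of the gene, held 92.8%, 90.5% and 91.0% of its alignment-based counts. Pparg-201, which begins inside the gene at base 115422066 of chromosome 6, was listed at 0 alignment-based counts in each library. By the read-based values, Pparg-201 had 17.3, 36.2 and 25.8 counts. There Pparg-202 had 103, 146 and 123 of the gene's 176, 353 and 326 counts, so its share was smaller. By the alignment-based values Clec10a, Tgm2 and Pparg could not be put in order: Clec10a was above Tgm2 in 2 of 3 libraries, and Tgm2 was above Pparg in 2 of 3. Pparg was above Chil3, the next in order, in 3 of 3 libraries.

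Chil3, which encodes the secreted chitinase-like protein Ym1, had 2, 1 and 0 counts, or 0.51, 0.06 and 0 TPM (chr3:106147554-106167564, minus strand). The detection floor, set at the 3 counts that a count of 0 allows, was 0.771, 0.168 and 0.367 TPM. Retnla, which encodes the secreted resistin-like protein RELM alpha, had 0, 1 and 0 counts (chr16:48842551-48844461, plus strand), and its floor of 3 counts was 0.654, 0.644 and 0.498 TPM. For both genes every library was at or under that floor, so a level below it was not detectable at this depth.

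Mgl2, which encodes a second lectin next to Clec10a, had 0, 1 and 0 counts (chr11:70130329-70137550, plus strand), under a floor of 0.285, 0.162 and 0.203 TPM. Clec10a, 18.6 kb away on the same strand, had 76 to 105 counts. The pair is close in sequence. Their coding sequences were 91.1% identical over 912 aligned bases, and 419 stretches of 31 bases occurred in transcripts of both genes, which is 13.7% of those of Clec10a and 19.3% of those of Mgl2. The longest coding stretch common to both is shown because a read that falls inside it fits either gene. It covers 183 bases, read 5′ to 3′ along the transcripts from GENCODE M21 (mm10), and crosses introns in the genome, running from base 70169822 to 70170189 of chromosome 11 in Clec10a and from 70136337 to 70136699 in Mgl2.
Shared by Clec10a and Mgl2: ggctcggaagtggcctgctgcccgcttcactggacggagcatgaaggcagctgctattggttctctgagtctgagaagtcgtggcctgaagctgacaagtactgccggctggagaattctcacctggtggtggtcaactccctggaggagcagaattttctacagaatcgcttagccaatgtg
Reads in this stretch could have been split between the genes by the authors' counting. The deposited standard deviation of the count, a measure of how uncertain that split was, was 0 for Clec10a and for Mgl2 in every library. Chil3 has a similar copy next to it: its coding sequence was 95.4% identical to that of Chil4, and Chil4 was listed at 0 in each library.

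The chemokine genes Ccl22 and Ccl17, whose products both bind the receptor CCR4, lie 58.8 kb apart on the plus strand of chromosome 8. Ccl22 (chr8:94745590-94751699) had 0, 2 and 4 counts, or 0, 0.07 and 0.12 TPM, and only library 3 exceeded its floor of 0.0885 TPM. Ccl17 (chr8:94810453-94812036) had 0 counts in all 3 libraries, which allows a level of up to 0.834, 0.860 and 0.655 TPM. Cx3cl1, the chemokine gene between them, was listed at 0, 0 and 0.23 TPM, while Ciapin1, 7.77 kb beyond Ccl17, stood at 13.0, 17.8 and 15.6 TPM.

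Ccl24, which encodes the eosinophil attractant eotaxin-2 (chr5:135569937-135573049, minus strand), also had 0 expected counts in every library, with a floor of 0.355, 0.323 and 0.257 TPM. No alignment-based count in any library was found for 26.8% of protein-coding genes. The second set of deposited values, in which reads were assigned to transcripts directly rather than through a genome alignment, gave another result for Ccl24. There it had 82, 243 and 235 estimated counts, or 4.82, 8.46 and 7.94 TPM, all of them on the longer of its isoforms, of 1295 bases. Of all protein-coding genes, 3.2% had 0 alignment-based counts in every library and 1 TPM or more by the read-based values in every library, so Ccl24 was 1 of 702 such genes. The level of Ccl24 is therefore given as uncertain.

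The read-based values placed the other members as follows. Il4ra stood at 90.2, 110 and 83.1 TPM, Clec10a at 8.94, 8.08 and 4.50 TPM, Tgm2 at 14.1, 7.29 and 10.6 TPM and Pparg at 14.7, 25.3 and 18.0 TPM. The order of libraries was the same in both sets for Pparg, with library 2 highest, and the Pparg level was several times higher in the read-based set. There Pparg was above Tgm2 and Clec10a in every library. Part of that lay in Pparg-203, a retained-intron isoform of 213 bases, which held 5.45, 12.6 and 5.97 read-based TPM and 0 alignment-based TPM. Ccl22 had 16, 17 and 23 read-based counts, Mgl2 5.48, 4.81 and 5.72, Retnla 1, 5 and 6, Chil3 2, 1 and 1, and Ccl17 1, 0 and 1. With Ccl24 added, 5 of 10 members reached 1 TPM in every library by the read-based values, against 57.4% of protein-coding genes.

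**Figure D2:**
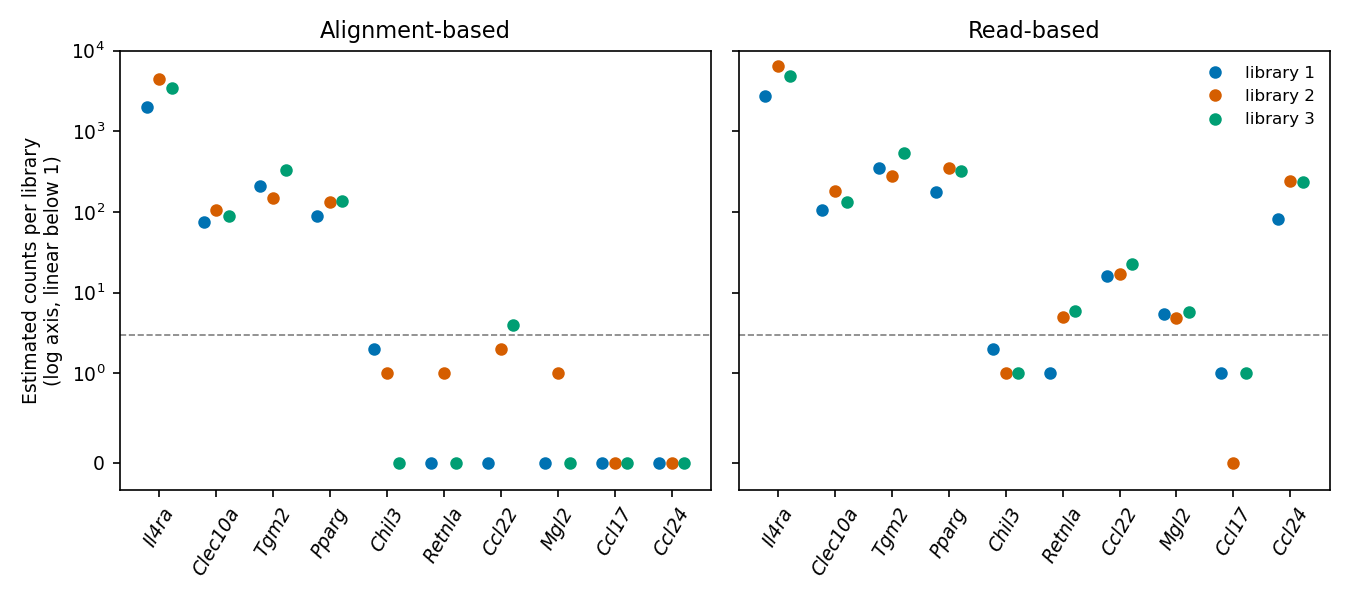
Estimated counts of the 10 genes in each library by the alignment-based values (left) and the read-based values (right), on an axis that is logarithmic above 1 and linear below; the dashed line marks 3 counts. Ccl24 lies at 0 in the left panel and between 82 and 243 counts in the right panel, while Il4ra is the highest gene in both.

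To ask whether members varied between the libraries more than other genes of like abundance, the expected counts of all genes were fitted together. Only 4 of the 10 members had enough counts to be fitted. In CPM, the count relative to the scaled library size, Il4ra stood at 167, 277 and 172, and library 2 was 1.65 times the lowest library. Tgm2 stood at 17.5, 9.02 and 16.7, and the highest library was 1.94 times library 2. Library 2, which started from the least RNA, was thus the high one for Il4ra and the low one for Tgm2, and the part of the starting amount in these levels was not tested. Clec10a stood at 6.35, 6.44 and 4.51, and Pparg at 7.44, 8.28 and 6.82. A ratio of 1.5 or more between the highest and lowest library was found for 2 of 4 members and for 31.2% of the 14839 genes fitted.

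The edgeR quasi-likelihood fit called none of the 4 members more variable than the trend, and it called 0% of the 14839 genes at an adjusted p of 0.05. With 3 libraries this test seldom detects even a 2-fold difference in 1 library. The absence of a call therefore does not show that the members varied no more than other genes. An unadjusted edgeR p under 0.05 was found for 747 genes, or 5.03%, which is about the share that this threshold lets through by chance. Il4ra was the 1 member among them, and its edgeR adjusted p was 0.963. More variable than Il4ra were 4.61% of genes, and more variable than Tgm2 (edgeR adjusted p = 0.992) were 6.40%. Clec10a (edgeR adjusted p = 0.992) and Pparg (edgeR adjusted p = 0.994) lay well inside the trend, with 47.2% and 79.6% of genes more variable. Without library 2, the ratio between the remaining libraries was 1.03 for Il4ra and 1.05 for Tgm2.

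The annotation types each isoform, and for Il4ra a large part of the reads fell on isoforms not typed as protein-coding. Such isoforms held 34.1%, 37.5% and 37.5% of the Il4ra counts (mean 36.4 ± 1.95%, SD, n = 3), with 95% Wilson intervals that cover counting error only of 32.1 to 36.2%, 36.1 to 38.9% and 35.9 to 39.2%. The libraries differed little, although the gene's level differed. Over 8975 protein-coding genes that have such isoforms and at least 10 counts in each library, the median share was 30.1%, and 56.2% of these genes had a lower share than Il4ra. Clec10a had 18.1%, 1.44% and 5.23%, Tgm2 14.5%, 20.0% and 10.6%, and Pparg 2.49%, 9.47% and 9.00%. These 3 genes had lower shares than Il4ra in every library, from 76 to 333 counts each.

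**Figure D3:**
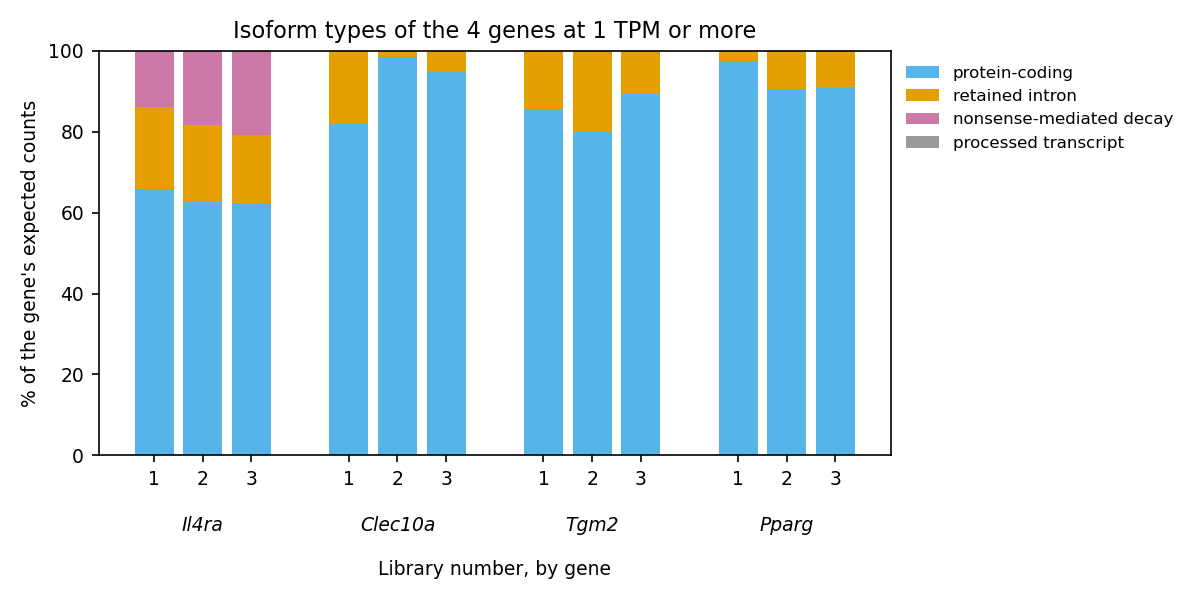
Share of the expected counts of Il4ra, Clec10a, Tgm2 and Pparg by annotated isoform type in libraries 1, 2 and 3; each bar is 1 library and sums to 100%. Non-coding types take 34.1 to 37.5% of Il4ra and at most 20.0% of the other 3 genes, and nonsense-mediated decay isoforms appear for Il4ra alone among these 4.

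A trio of Il4ra isoforms took nearly all of its counts. Il4ra-201, the full-length receptor transcript, held 65.9%, 62.4% and 62.4%. Il4ra-204, a retained-intron transcript of 1615 bases, held 20.2%, 19.2% and 16.7%. Il4ra-205, which is typed as a target of nonsense-mediated decay, held 13.9%, 18.2% and 20.9%, or 6.80, 17.0 and 12.0 TPM. Because Il4ra-204 is short, it weighed more on the TPM scale than in counts: it stood at 24.5, 45.8 and 24.3 TPM, and Il4ra-201 stood at 22.2, 40.1 and 24.8 TPM. Protein-coding isoforms alone gave 22.2, 41.8 and 25.7 TPM for the gene, with library 2 again the highest.

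Il4ra-205 has an added exon that Il4ra-201 lacks. The transcripts also differ at both ends and in length. Il4ra-205 runs from base 125552287 to 125577967 and has 3696 bases. Il4ra-201 runs from 125552120 to 125579474 and has 5256 bases. The mouse gene is known to make a soluble form of the receptor from a differently spliced transcript with an extra exon ahead of the membrane-spanning part. The added exon of Il4ra-205 is its exon 8, 114 bases long (mm10 chr7:125571934-125572047), and its first 17 bases are coding before a stop codon. The coding length is 690 bases, while that of Il4ra-201 is 2430 bases. The junction is shown because it separates the transcripts: the last 45 bases of the exon before are in lower case, and the coding start of the added exon with its stop codon is in capitals, read 5′ to 3′ on the plus strand from the GENCODE M21 transcript.
Il4ra-205 exon junction: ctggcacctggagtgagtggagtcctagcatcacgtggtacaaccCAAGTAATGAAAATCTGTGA
The exon also lies inside the last exon of Il4ra-204 (chr7:125571434-125572280), so a read within it fits both isoforms. By the read-based values Il4ra-205 had 771, 2041 and 1689 counts. There the share of Il4ra in isoforms not typed as protein-coding was between 53.9% and 56.5%. The size of the share thus depended on how reads were assigned, and in both sets it was above that of Clec10a, Tgm2 and Pparg in every library.

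The regions ahead of the genes were searched for the spaced palindrome that STAT6 is known to bind, TTCNNNNGAA, which reads the same on either strand. The RefSeq table (build GRCm38.p6, windows from 250 bases before to 50 bases after a start) held windows for 7 of the 10 members. The motif occurred in those of 2 members, Retnla and Ccl17, and in 6.95% of all 32851 windows. It was not found in the windows of Il4ra, Chil3, Ccl22, Mgl2 and Pparg. Retnla and Ccl17 are shown because they hold the motif and had at most 1 alignment-based count in any library, and Il4ra because it was the highest member and its window lacks these letters. Capitals mark the motif, 145 bases before the RefSeq start in Retnla and 154 in Ccl17. The sequences run 5′ to 3′ on the plus strand and leave out upstream bases that GENCODE places in a first exon, 58 for Retnla and 151 for Il4ra.
Retnla, chr16:48842359-48842550: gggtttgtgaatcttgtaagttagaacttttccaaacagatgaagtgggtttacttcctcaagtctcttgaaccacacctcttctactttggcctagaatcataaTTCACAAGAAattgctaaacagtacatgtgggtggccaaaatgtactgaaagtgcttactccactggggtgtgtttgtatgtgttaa
Ccl17, chr8:94810203-94810452: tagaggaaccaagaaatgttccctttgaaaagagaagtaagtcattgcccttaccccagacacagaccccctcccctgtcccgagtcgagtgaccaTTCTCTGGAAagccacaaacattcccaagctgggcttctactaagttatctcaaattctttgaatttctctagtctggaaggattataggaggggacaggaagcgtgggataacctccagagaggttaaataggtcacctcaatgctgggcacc
Il4ra, chr7:125552021-125552119: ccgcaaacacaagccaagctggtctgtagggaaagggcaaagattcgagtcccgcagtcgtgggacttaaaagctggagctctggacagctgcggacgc
These matches describe the letters of the windows, and no binding was measured.

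The rest of the pathway was read from 8 lists with 56 genes. Of these, 21 reached 1 TPM in every library, 26 were under 1 TPM in every library, and 8 had 0 in all 3. The share of all protein-coding genes that passed the same 1 TPM rule was 46.2%, as above. The shares under 1 TPM in every library and with 0 counts in every library were 47.3% and 26.8%. Of 6 signalling genes, 5 passed: Tyk2 stood at 101, 122 and 98.7 TPM, Stat6 at 70.3, 82.1 and 78.7 TPM, and Jak1 at 35.1, 37.6 and 38.1 TPM. Irs2, an adaptor that binds the phosphorylated receptor, was the lowest at 0.68, 0.95 and 1.32 TPM. Stat6 varied little between the libraries and had a mean of 77.1 ± 6.06 TPM (SD, n = 3), close to that of Il4ra.

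Among the receptor partners, Il2rg, the common gamma chain, stood at 65.5, 47.7 and 53.9 TPM, while Il13ra1, the other partner of Il4ra, stood at 0.53, 0.27 and 1.44 TPM. Il13ra1 was highest in library 3, the library with the stromal markers, and the part of those cells in its level was not tested. Il13ra2, a decoy receptor for IL-13, was listed at 0 in every library. Of the ligands, Il4 stood at 0.92, 1.05 and 0.36 TPM and Il13 at 0. The Il4 values rested on 4, 5 and 2 counts, near its floor of 0.687, 0.633 and 0.543 TPM, and library 3 was under that floor. Of 5 inhibitors of the signal, 4 passed: Ptpn6, the phosphatase SHP-1, at 125, 110 and 120 TPM, Ptpn1 at 49.9, 44.5 and 39.3 TPM, Socs3 at 6.17, 5.19 and 5.76 TPM, and Socs1. Cish was the lowest at 0.21, 0.34 and 0.89 TPM.

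Of 10 transcription and chromatin partners, 6 passed. The highest were Rxrb, which pairs with PPAR gamma, at 16.9, 25.9 and 20.9 TPM, Ppargc1b, a coactivator, at 13.3, 15.7 and 11.3 TPM, and Bcl6, a repressor, at 12.9, 10.5 and 10.6 TPM. Irf4, a factor that IL-4 is known to induce, was the lowest at 0.15, 0.48 and 0.36 TPM. Of the 13 other genes known to respond to IL-4 in macrophages, 3 passed: Mrc1, the mannose receptor, at 33.7, 38.0 and 54.1 TPM, Cd200r1, an inhibitory receptor, at 37.8, 40.5 and 41.5 TPM, and Matk at 1.81, 3.06 and 2.10 TPM. Rnase2a was the lowest, at 0 in each library.

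The high mean of Fn1, the fibronectin gene, came from 1 library: it stood at 0.06, 0.06 and 43.4 TPM. In all, 10 of these 13 genes were highest in library 3, where the stromal markers summed to 674 TPM, against 46.7% of the protein-coding genes that were above 0 in any library. Of the 10, Alox15 and Cdh1 rested on 1 count in library 3. Others also had few counts, among them Arg1 with 10, 11 and 11 and Socs2 with 4, 5 and 10. Cd200r1 differed little between the libraries. The 13 genes include Rnase2a at 0, while the share over protein-coding genes leaves out genes at 0. The part of stromal cells in the levels of these genes was not tested. Of the 10 members, only Tgm2 and Ccl22 were highest in library 3, and for Tgm2 libraries 1 and 3 were close. The same 4 members reached 1 TPM with library 3 left out.

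Of 15 paralogs of the members, 2 passed: Il21r, the type I cytokine receptor gene 24.0 kb from Il4ra, at 22.0, 28.3 and 26.9 TPM, and Ppard, the relative of Pparg, at 7.75, 11.0 and 8.33 TPM. Chil1 followed at 1.68, 1.65 and 0.70 TPM. Of the 15 paralogs, 5 were at 0 in every library, among them Ppara, against 26.8% of protein-coding genes. Ccr4, the receptor of Ccl17 and Ccl22, stood at 0.23, 0.22 and 0.07 TPM, and Ccr3, the receptor of Ccl24, at 0.19, 0.12 and 0.35 TPM.

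**Figure D4:**
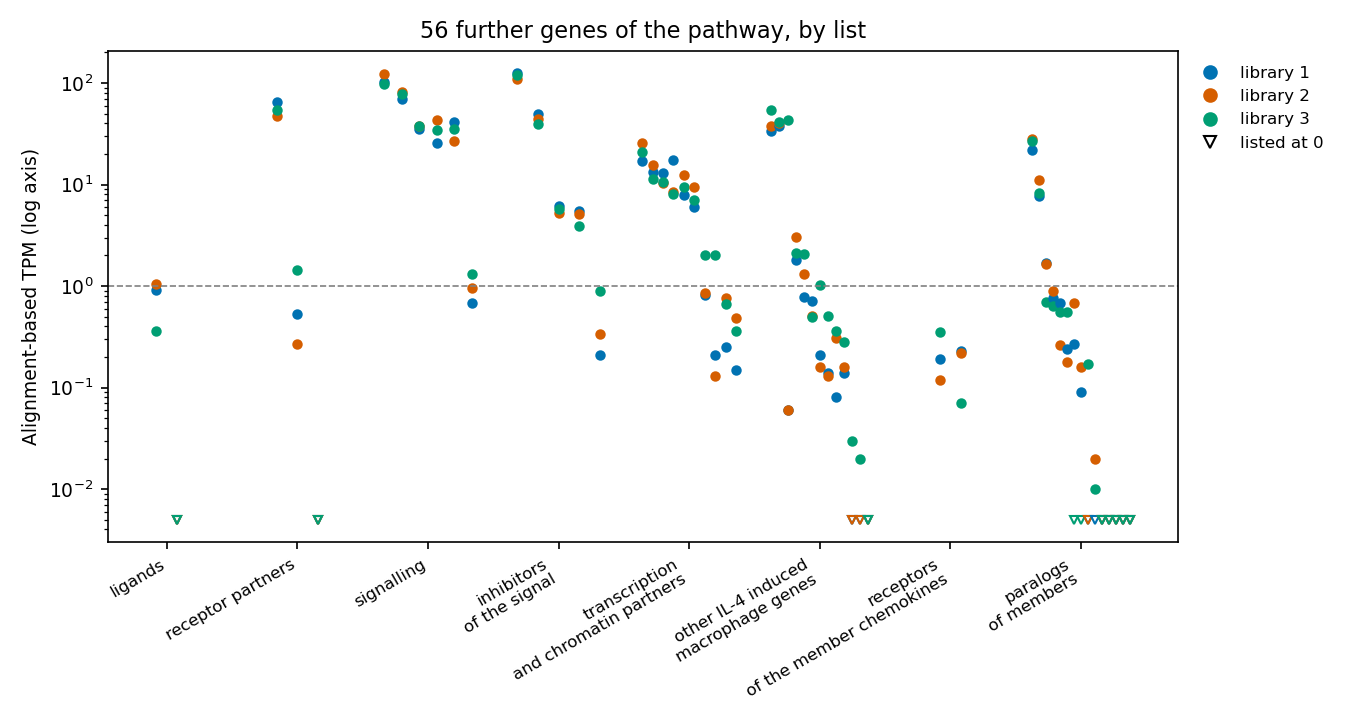
Alignment-based TPM on a log axis of the 56 further pathway genes, grouped by list and ordered by mean within a list; each point is 1 library and open triangles mark genes listed at 0. Most signalling genes and inhibitors lie above the dashed line at 1 TPM, while most of the other IL-4-induced genes lie below it in libraries 1 and 2.

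The nearest neighbours of the members that were low by the alignment-based values differed in level. Chil3 is flanked by Chia1 and Chil4, both listed at 0, and Retnla by Retnlb at 0 and Retnlg at 0, 0 and 0.17 TPM. Ccl24 lies 6.37 kb from Ccl26, which was at 0, and on its other side 59.6 kb from Rhbdd2 at 8.20, 14.6 and 11.3 TPM. Over all members there were 18 distinct nearest protein-coding neighbours that are not members themselves, and 8 of them reached 1 TPM in every library, which is near the 46.2% of all protein-coding genes.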

How the data were processed

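The 3 libraries of 1 group were used, grouped by the label descriptions. Per the README text deposited with each library, reads were mapped to mm10 with GENCODE M21; no source used here gives the aligner, the quantifier, their versions or the use of strand. Per the file headers, the authors deposited expected counts with their posterior standard deviation and TPM per gene and isoform. A second set held estimated counts and TPM per isoform. The first set is described here as counted from alignments and the second as assigned from reads directly. Rows that name no gene held 0.240 to 1.31% of expected counts and were left out of library sizes and tests. Means and SDs over libraries were computed from deposited TPM. Floors are 3 counts, converted with the gene's effective length. They cover counting error only. Expected counts were rounded and fitted with edgeR 4.0.16 in R 4.3.3 (filterByExpr, TMM, 1 group); the quasi-dispersion of every gene was set against the trend by a one-sided F-test with Benjamini-Hochberg adjustment over all 14839 genes. The script was tested on simulated data. With 1 group, no comparison between groups exists. All 10 members are named; of each pathway list, up to 3 of the highest genes and the lowest; and the nearest protein-coding neighbours. The members and lists were chosen with earlier results of these data known. Alternatives were read-based values, TPM rescaled to protein-coding and lncRNA genes outside the mitochondrial genome, other TPM thresholds, other scaling, no filter, and each library left out.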

Additional observations from a re-analysis of the deposited data

Results flagged for a closer look

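Ccl24 and Mgl2 had no more than 1 alignment-based count in any library, but the read-based values, which are not the main measurement, held more than 3 estimated counts in every library for both. Ccl24 had 82, 243 and 235 read-based counts in libraries 1, 2 and 3. Mgl2 had 5.48, 4.81 and 5.72. Of the 5886 protein-coding genes with 0 alignment-based counts in every library, 24.8% also had more than 3 read-based counts in every library. Ccl24 was 1 of these, while Mgl2 had 1 alignment-based count and lay outside that share. Ccl22 had 16, 17 and 23 read-based counts but was not flagged, because it had 4 alignment-based counts in library 3. No control library was analysed here to set a background for either gene.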

How the results depend on the processing

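Of the 10 members, 4 reached 1 TPM in every library by the main values, after rescaling to protein-coding and lncRNA genes outside the mitochondrial genome, at a threshold of 0.5 TPM and with each library left out; it was 5 by the read-based values and 1, Il4ra, at 5 TPM. The median member level of 0.13 TPM became 3.75 TPM by the read-based values and 0.315 TPM after rescaling, and 0.1 to 0.195 TPM with a library left out. Protein-coding isoforms alone and a robust prior in edgeR were chosen after seeing the data, and the first gave 0.0667 TPM. Rescaling raised the mean of Il4ra to 167 TPM, Clec10a to 14.6 TPM, Tgm2 to 12.9 TPM and Pparg to 11.6 TPM. The means of 6 of the 10 members moved by more than their SD over libraries on rescaling, and those of 7 by the read-based values. The 21 pathway genes became 31 by the read-based values, 27 after rescaling and 21 to 22 with a library left out. No member was called more variable than the trend by edgeR in any of 8 settings (adjusted p 0.575 to 0.999, edgeR), while the calls over all genes were 0 in the main fit, 0 with RLE scaling, 49 without a low-count filter, 10 with read-based counts, 24 with the robust prior, and 0 to 73 with a library left out, the 73 without library 3. By the read-based values the mean share in isoforms not typed as protein-coding became 55.1% for Il4ra, 22.3% for Tgm2, 13.9% for Pparg and 15.1% for Clec10a (8.26% in the main values). With a library left out, the main share was 35.8 to 37.5%, 12.5 to 17.2%, 5.75 to 9.24% and 3.34 to 11.7% in the same order. The last of these was lowest without library 1. The causes were not tested. For Chil3, Retnla, Mgl2, Ccl22 and Ccl17, with 0 to 4 alignment-based counts a library, levels under the floor of 3 counts could not be measured. No paired analysis was possible because there is 1 group.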

Other observations

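Retn and Mmp12, picked after their values were seen, also had few alignment-based counts and many read-based counts. Retn, the resistin gene and a paralog of Retnla, had 1, 2 and 0 alignment-based counts and 106, 194 and 179 read-based counts in libraries 1, 2 and 3. Mmp12, a macrophage elastase gene, had 7, 7 and 45 alignment-based counts and 282, 486 and 536 read-based counts.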
